A study of Homo sapiens with 12 samples.

Results

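The genes described here are 10 enzymes of liver glucose production and nitrogen disposal. PCK1, PCK2, G6PC1 and FBP1 act in gluconeogenesis, TAT degrades tyrosine, and CPS1, OTC, ASS1, ASL and ARG1 carry the 5 steps of the urea cycle. They were taken by name and form 10 of the 19974 protein-coding genes placed on chromosomes 1 to 22 and X. The study grew Huh7, a human hepatocellular carcinoma cell line, and addressed how choline supply bears on chromatin marks in these cells. Custom medium without choline chloride, with B-27 in place of serum, was given 15 µM or 0 µM choline for 48 h. One group, 15 µM choline, received choline, and the other, 0 µM choline, received none. ChIP-seq for H3K27ac and H3K4me1 gave 1 summit list per mark and dose, so no difference between doses could be set against a replicate spread, and no p-value is given.

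Gluconeogenesis makes glucose from lactate, glycerol and amino acids, and the urea cycle turns the ammonia that amino acids release into urea. Both pathways are strongly expressed in differentiated hepatocytes, where fasting hormones and liver transcription factors regulate their genes. Histone H3 acetylated at lysine 27 (H3K27ac) marks active promoters and enhancers, and histone H3 monomethylated at lysine 4 (H3K4me1) marks enhancers, active or poised. A summit is the position of highest enrichment in a called peak. Each summit has a score, which is the authors' −log10 of a p- or q-value. Scores of different lists are printed together and drawn on a common scale, but are not to be compared between lists. The stricter score used as a check was the same cut-off for both doses of a mark. A list cannot tell a mark carried by fewer cells from less mark per cell.

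Promoter sequences from RefSeq (GRCh38.p14, the assembly family of the hg38 summits) cover 250 bases before to 50 bases after a start. Entries matched 8 of the 10 genes, with 11 starts. The 4 shown are those with an H3K4me1 summit inside the printed window (PCK2, G6PC1, ASS1) and that of ARG1, near whose start both marks lay. Capitals mark matches on either strand to the motifs named below.
PCK2 (chr14:24094061-24094360, plus strand): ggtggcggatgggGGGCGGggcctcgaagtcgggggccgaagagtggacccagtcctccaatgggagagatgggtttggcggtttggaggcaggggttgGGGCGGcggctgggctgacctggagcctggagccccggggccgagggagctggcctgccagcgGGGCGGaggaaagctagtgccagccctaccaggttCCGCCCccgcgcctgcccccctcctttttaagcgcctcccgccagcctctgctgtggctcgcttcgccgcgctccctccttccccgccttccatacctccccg
G6PC1 (chr17:42900549-42900848, plus strand): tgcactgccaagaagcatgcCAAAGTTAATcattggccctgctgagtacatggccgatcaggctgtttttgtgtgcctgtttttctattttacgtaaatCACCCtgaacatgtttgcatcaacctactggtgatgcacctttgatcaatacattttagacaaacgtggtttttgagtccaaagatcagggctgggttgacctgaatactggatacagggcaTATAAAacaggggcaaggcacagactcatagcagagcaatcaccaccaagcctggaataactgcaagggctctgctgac
ASS1 (chr9:130444457-130444756, plus strand): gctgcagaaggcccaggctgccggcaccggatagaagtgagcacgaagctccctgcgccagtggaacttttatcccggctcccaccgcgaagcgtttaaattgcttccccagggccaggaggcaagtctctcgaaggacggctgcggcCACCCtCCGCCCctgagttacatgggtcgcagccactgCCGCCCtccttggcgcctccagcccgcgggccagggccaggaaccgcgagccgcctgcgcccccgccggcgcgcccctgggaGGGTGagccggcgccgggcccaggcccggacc
ARG1 (chr6:131572976-131573275, plus strand): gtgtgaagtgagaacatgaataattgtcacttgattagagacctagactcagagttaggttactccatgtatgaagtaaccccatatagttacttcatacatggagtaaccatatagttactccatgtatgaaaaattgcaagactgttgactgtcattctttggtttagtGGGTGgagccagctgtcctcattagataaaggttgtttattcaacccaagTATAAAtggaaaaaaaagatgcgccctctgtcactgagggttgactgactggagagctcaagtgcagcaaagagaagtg

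The PCK2 promoter held 4 GC boxes (GGGCGG, bound by SP and KLF factors), a motif found in 45% of 35116 RefSeq promoters of the same length. The G6PC1 promoter held none. It had CAAAGT, a part of the HNF4 motif present in 11.9% of promoters, overlapping GTTAAT, a part of the HNF1 motif present in 6.88%. It also held CACCC, a KLF-type motif found in 59.9%, and TATAAA, the TATA box, found in 11.5%. ARG1 had 1 CACCC and a TATA box, and in both G6PC1 and ARG1 the TATA box began at -29 relative to the start. The ASS1 promoter had 2 GC boxes and 2 CACCC. These are matches of letters and not measured binding sites. The core of the cAMP response element (ACGTCA, 7.98% of promoters), the forkhead motif (TGTTTAC, 3.42%) and the C/EBP motif (TTGCNNAA, 10.5%) were also searched and had no match in these 4 windows.

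H3K27ac was called at 29305 positions with 15 µM choline and at 37946 with 0 µM, and H3K4me1 at 349202 and 343156. The 0 µM counts were therefore multiplied by the ratio of list lengths, 0.772 for H3K27ac and 1.02 for H3K4me1, before the doses were compared. Hepatocyte markers carried H3K27ac throughout. Their 10 genes, which include ALB and HNF4A, had 172 summits within 50 kb of a gene end at 15 µM and 151 at 0 µM, and 9 and 7 of the 10 had a summit within 1 kb of an end. The 4 blood markers had 12 and 10 summits in all, of which LYZ held 10 and 8. The 5 stroma and endothelium markers had 15 and 12, of which PECAM1 held 9 and 6, with a gene-end summit at both doses, while VWF and ACTA2 were at 0. The 4 neuron and muscle markers had 6 and 6, and the 4 cholangiocyte markers 2 and 5.

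In the windows at the ends of the 10 genes, H3K27ac was concentrated at 1 of them. Within 50 kb of either annotated gene end, the 10 windows contained 32 H3K27ac summits with 15 µM choline and 37 with 0 µM, of which TAT held 15 and 17. Without TAT, the other 9 held 17 and 20. After scaling, the sum differed by 3.43 summits (95% interval -11.4 to 18.6, counting error only), and leaving the counts unscaled gave -5. The median gene of the 10 had 2.5 and 2 summits, against 1 and 2 for all genes. These windows miss the middle of CPS1, a long gene. Over the whole gene with 50 kb either side CPS1 had 12 and 9, against 15 and 17 at TAT. In the windows H3K4me1 was spread more evenly, with 221 summits at 15 µM and 232 at 0 µM. Its scaled difference was -15.1 (-58.0 to 27.9). Both intervals include 0. At least 1 H3K27ac summit lay in the windows of 7 of the 10 genes at 15 µM, where 51.2% of all genes had one, and of 7 at 0 µM, where 65% did. H3K4me1 reached the windows of 10 of 10 genes at both doses, as it did for 98.2% of all genes at 15 µM and 98.1% at 0 µM.

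**Figure D1:**
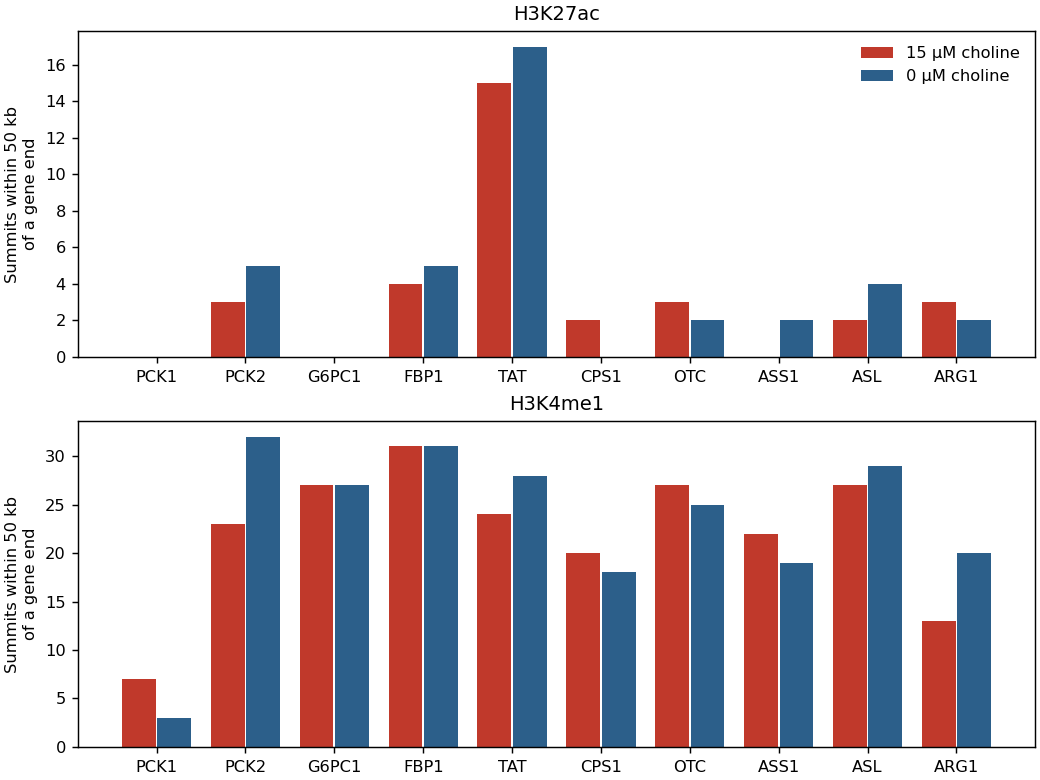
Summits within 50 kb of either end of each gene, as deposited counts without scaling, for H3K27ac (top) and H3K4me1 (bottom); red bars are 15 µM choline and blue bars 0 µM, 1 library each. TAT stands apart in H3K27ac with 15 and 17 summits, while PCK1 and G6PC1 have none and PCK1 has the fewest H3K4me1 summits, 7 and 3. The windows miss the middle of CPS1.

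PCK1 and G6PC1, which catalyse an early and the last step of gluconeogenesis, had no H3K27ac summit in their windows at either dose. This was so for 32.8% of all genes. PCK1, the cytosolic phosphoenolpyruvate carboxykinase (chr20:57561110-57568121), lay 1083 kb from the nearest H3K27ac summit at 15 µM and 1083 kb at 0 µM. Its window was also poor in H3K4me1, with 7 summits at 15 µM and 3 at 0 µM, none of them inside the gene. The nearest lay 19.2 kb and 33.2 kb from a gene end. That H3K4me1 window met the fold rule used here (a ratio of at least 1.5 either way after adding 1 to each count, with at least 4 summits in all), at 1.97 and a scaled difference of 3.95 (-3.16 to 8.65). Higher calls by this rule covered 8.31% of all genes.

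G6PC1, the catalytic subunit of glucose-6-phosphatase (chr17:42900799-42914438), differed from PCK1 in its H3K4me1, which was as dense as around most genes of the set. Its window held 27 H3K4me1 summits at 15 µM and 27 at 0 µM. At 15 µM, 1 of them (position 42900675, score 4.58) lay 124 bp before the start, inside the printed promoter, and at 0 µM the nearest lay 1148 bp from the start (42901947, score 1.93). The highest-scoring H3K4me1 summits in the window lay just beyond the gene, at 42918769 (19.0) at 15 µM and 42918842 (15.2) at 0 µM. The nearest H3K27ac summits fell just outside the window, 50.4 kb from the gene end at 15 µM (42964827, score 5.99, at an end of AARSD1) and 59.2 kb at 0 µM (42973669, score 9.78).

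PCK2, the mitochondrial phosphoenolpyruvate carboxykinase (chr14:24094171-24104125), was the 1 gene of the set with H3K27ac near an end at 0 µM and near neither end at 15 µM. At 15 µM its window held 3 H3K27ac summits, at 24113759 (score 13.8), 24114286 (29.1) and, at an end of EMC9, 24141918 (8.49). At 0 µM it held 5, at 24091029 (6.75), 24094541 (14.4), 24095534 (10.6), 24114366 (27.2) and 24114905 (28.2). The summit at 24094541 lay 230 bp downstream of the PCK2 start, whereas the nearest at 15 µM was 9.63 kb from a gene end. A second gene, NRL, overlaps PCK2 on the other strand and has a RefSeq start 819 bp from that of PCK2, so these summits cannot be given to 1 of the 2 genes. The summits common to both doses, 24114286 and 24114366, were 80 bp apart and lay at the ends of DCAF11 and NRL, not at PCK2. H3K4me1 was found at the gene at both doses, with summits at 24093613 (10.6) at 15 µM and 24093175 (5.31) at 0 µM. At 0 µM further H3K4me1 summits lay in the printed promoter at 24094094 (2.11) and, 63 bp from the H3K27ac summit 24095534, at 24095471 (10.8). The H3K4me1 windows held 23 and 32, a scaled difference of -9.56 (-24.2 to 6.06) that stayed short of the fold rule. With only summits that score at least 5 they held 7 and 8.

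FBP1, fructose-1,6-bisphosphatase (chr9:94603133-94640263), had its H3K27ac far inside the gene and not at its promoter. Its start is at 94639518 on the minus strand, and all 4 summits at 15 µM lay near the other end, at 94604305 (5.95), 94607372 (18.5), 94608428 (15.6) and 94609385 (18.4). At 0 µM this stretch had 94607369 (8.84) and 94608488 (61.0), with 94610884 (7.65) just beyond it and 2 further summits outside the gene at 94669331 (14.0) and 94683606 (7.77). Summits of the 2 doses fell 3 bp and 60 bp apart. The summit scoring 61.0 exceeded 98.7% of its list. An H3K4me1 summit stood at the same place at both doses, at 94607581 (16.2) at 15 µM and 94607388 (19.7) at 0 µM, and the H3K4me1 windows held 31 and 31.

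**Figure D2:**
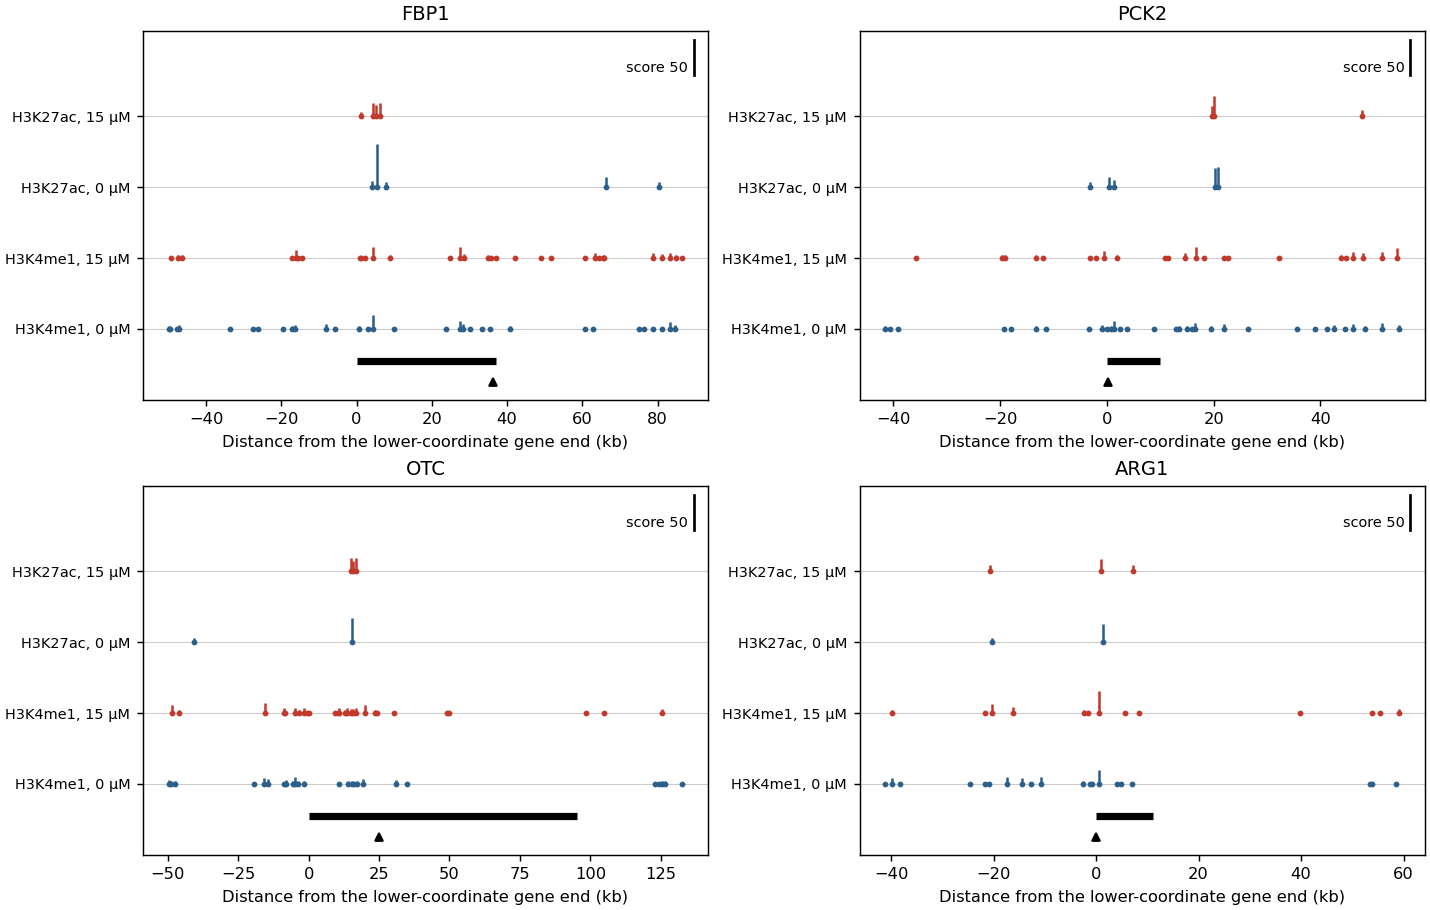
Summits around FBP1, PCK2, OTC and ARG1 against distance from the lower-coordinate gene end in kb. Sticks rise with the score (scale bar, score 50), and their heights are not to be compared between lists. Red is 15 µM choline and blue 0 µM, the black bar is the gene and triangles are RefSeq promoter starts. FBP1 and OTC carry H3K27ac away from their starts, PCK2 has H3K27ac at its start at 0 µM, and ARG1 has both marks near its start at both doses.

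TAT, tyrosine aminotransferase (chr16:71565660-71577092), carried the most H3K27ac summits of the set. It starts tyrosine breakdown, which supplies fumarate and a ketone body, and is a classical glucocorticoid-induced liver enzyme. In its windows lay 15 H3K27ac summits with 15 µM choline and 17 with 0 µM, more than 97.8% and 98.1% of all genes. The scaled difference was 1.87 (-8.21 to 12.3), and it turned to -2 without scaling. Summits no more than 12.5 kb apart were joined into runs. At 15 µM the 15 summits formed 1 run of 31.9 kb (71566456 to 71598358), with more summits than 98.3% of 10585 runs. At 0 µM the 17 formed 1 run of 41.8 kb (71565771 to 71607602), with more than 99.1% of 14332 runs. The median run had 2 summits at each dose.

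In the TAT run, 2 positions recurred closely. A summit at 71585221 (score 25.0) at 15 µM lay 8 bp from 71585229 (86.3) at 0 µM, and 71598358 (24.1) lay 23 bp from 71598381 (79.9). Within 500 bp, 5 of the 15 summits at 15 µM and 5 of the 17 at 0 µM had a counterpart in the other list, where 50.7% and 38.7% of all summits did, and the 3 further pairs lay 126 to 223 bp apart. The highest at 15 µM was 71594404 (37.3). The 2 gene ends differed. Near the lower-coordinate end lay 71566456 (25.0) at 15 µM and 71565771 (43.0) at 0 µM. At the higher-coordinate end 71577190 (9.32) lay 98 bp away at 0 µM, and the nearest at 15 µM was 3.06 kb away. H3K4me1 had 71576714 (10.3) there at 0 µM, 378 bp away, and none nearer than 2.52 kb at 15 µM. TAT has no RefSeq promoter entry here, so its start is not given. Inside the 31.9 kb of the 15 µM run H3K4me1 had 7 summits at 15 µM and 13 at 0 µM. Counted per H3K27ac summit, 8 of 15 at 15 µM and 13 of 17 at 0 µM had an H3K4me1 summit within 1 kb. The whole H3K4me1 windows held 24 and 28.

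**Figure D3:**
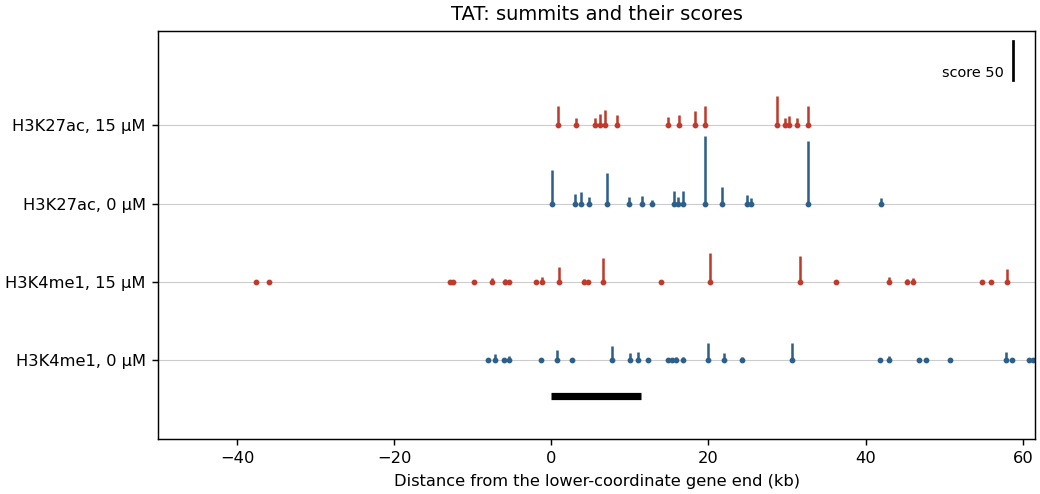
H3K27ac and H3K4me1 summits around TAT against distance from its lower-coordinate end in kb. Sticks rise with the score (scale bar, score 50), and their heights are not to be compared between lists. Red is 15 µM choline, blue 0 µM and the black bar the gene. The H3K27ac summits run through the gene and on past its higher-coordinate end at both doses, with scores of 86.3 and 79.9 at 0 µM.

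CPS1, carbamoyl-phosphate synthetase 1, the mitochondrial enzyme that commits ammonia to the urea cycle (chr2:210477685-210679107), had most of its H3K27ac inside the gene. Its 3 RefSeq starts are at 210477685, 210519718 and 210593355. The nearest H3K27ac summit to the first was 13.3 kb away at 15 µM, outside the gene, and 59.8 kb at 0 µM. For the second these distances were 16.6 kb and 17.8 kb, and for the third 23.4 kb and 24.5 kb. The 50 kb windows at the 2 ends held 2 low-scoring summits at 15 µM (6.03 and 6.97) and 0 at 0 µM. They miss the middle of this long gene. Over the whole gene with 50 kb either side there were 12 summits at 15 µM and 9 at 0 µM. Most fell between the second and the third start. At 15 µM 8 of them formed a run of 14.4 kb (210536965 to 210551385, highest score 36.0 at 210540053). At 0 µM 8 formed a run of 24.5 kb (210537506 to 210562015, highest 67.9 at 210541320).

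The CPS1 run at 15 µM contained no H3K4me1 summit. Its 14.4 kb held 8 H3K27ac and 0 H3K4me1 summits at 15 µM, against 7 and 4 at 0 µM. Among all 15 µM runs of 8 summits, 1 of 133 (0.752%) had no H3K4me1 summit, and CPS1 was that run. Among 192 such runs at 0 µM there was none. This feature was picked after its values were seen. In the longer 0 µM extent H3K4me1 had 3 summits at 15 µM and 10 at 0 µM. A strong one sat beyond the 15 µM run at both doses, at 210553309 (38.8) and 210553339 (21.1). The first lay 1924 bp past the last H3K27ac summit of the run. Peak widths are not in the lists, so whether H3K4me1 reached into the run cannot be told. Over the whole gene and 50 kb either side, H3K4me1 had 43 and 48 summits.

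**Figure D4:**
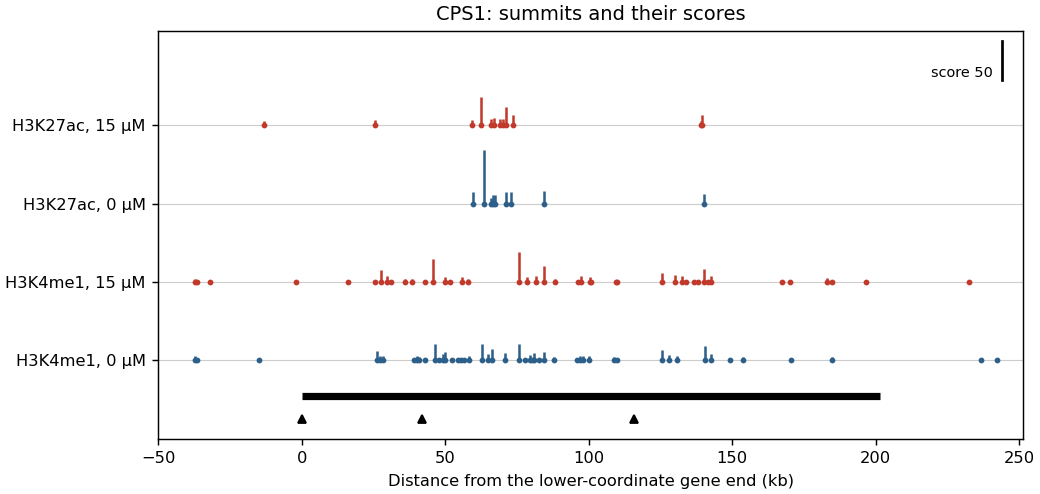
H3K27ac and H3K4me1 summits across CPS1 against distance from its lower-coordinate end in kb. Sticks rise with the score (scale bar, score 50), and their heights are not to be compared between lists. Red is 15 µM choline, blue 0 µM, the black bar the gene and triangles the 3 RefSeq starts. H3K27ac clusters between the second and the third start at both doses, and in the 15 µM cluster of 8 summits no H3K4me1 summit falls.

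OTC, ornithine transcarbamylase, makes citrulline in mitochondria (chrX:38327684-38422928). Its 3 H3K27ac summits at 15 µM lay at 38342704 (18.7), 38343540 (13.8) and 38344520 (18.7), and its 2 at 0 µM at 38287125 (6.39) and 38343127 (34.4). The group inside the gene stood upstream of the promoter start at 38352604, by 8.08 kb at 15 µM and 9.48 kb at 0 µM for the nearest summit. The fold rule called the window higher at 1.57, on a scaled difference of 1.46 (-2.56 to 4.53). Joining summits within 1 kb turned the difference to -0.51, since the 3 summits at 15 µM then counted as 1. H3K4me1 had 27 summits at 15 µM and 25 at 0 µM.

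ASS1, argininosuccinate synthase 1, joins citrulline and aspartate (chr9:130444707-130501274). It had no H3K27ac summit in its windows at 15 µM, where the nearest was 89.3 kb away, and 2 at 0 µM, at 130436894 (7.37) and 130527781 (8.57), neither inside the gene. H3K4me1 lay within 1 kb of both gene ends at 15 µM, and of the higher-coordinate end only at 0 µM. At 15 µM a summit at 130444488 (6.30) lay in the printed promoter. At 0 µM the nearest to a start was at 130445874 (4.43), inside the gene and 1167 bp from its lower-coordinate end. At the other end a summit at 130500331 (17.7) lay 7 bp from the 0 µM summit at 130500338 (11.7). The H3K4me1 windows held 22 and 19.

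ASL, argininosuccinate lyase, releases arginine and fumarate (chr7:66075819-66093576). Its windows held 2 H3K27ac summits at 15 µM, at 66137699 (11.9) and 66142720 (9.16), and 4 at 0 µM, at 66115429 (10.8), 66137760 (11.6), 66141055 (9.12) and 66143009 (6.50). All 6 lay inside the neighbouring gene CRCP. At ASL itself only H3K4me1 was found, with summits inside the gene at 66076937 (9.48) at 15 µM and 66077195 (4.33) at 0 µM, and windows of 27 and 29.

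ARG1, arginase 1, releases urea from arginine (chr6:131573226-131584329), and was the gene of the urea cycle with both marks next to its start. Its H3K27ac summits at 15 µM were 131552489 (8.48), 131574143 (17.1) and 131580460 (8.26), and at 0 µM 131552839 (5.34) and 131574529 (25.1). The pair near the start lay 386 bp apart. H3K4me1 peaked at 131573825 (31.2) at 15 µM and 131573886 (19.6) at 0 µM, 61 bp apart, with scores above 99.4% and 98.3% of their lists. The far end of MED23 overlaps this stretch at 131573966, while the MED23 start lies at 131628313. The fold rule called the ARG1 H3K27ac window higher at 1.57, on 3 summits against 2, and its H3K4me1 window lower at 0.656, on 13 against 20 (scaled difference -7.35, -18.3 to 4.94).

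Calls on these 10 genes rested on small counts. For H3K27ac, OTC and ARG1, each with 3 summits against 2, were 2 of 10 called higher, where 5.43% of all genes were, and 0 were called lower, where 11.6% were. For H3K4me1, 1 of 10 was called higher (PCK1), where 8.31% of all genes were, and 1 lower (ARG1), where 6.38% were. At 15 µM, TAT (lower-coordinate end only) and ARG1 had an H3K27ac summit within 1 kb of a gene end. These were 2 of 10, where 16.2% of genes had one. At 0 µM TAT (both ends) and PCK2 did, 2 of 10 where 28.3% of genes did. Among the 8 genes with a RefSeq promoter start, 1 had H3K27ac within 1 kb of it at 15 µM (ARG1, against 17.4% of genes with such a start) and 1 at 0 µM (PCK2, against 30.6%), and for H3K4me1 6 did at 15 µM (45.1%) and 4 at 0 µM (45.4%). Counted per gene, 1 of the 2 marked at 0 µM was lost (PCK2), with none within 2 kb of either end at 15 µM. This held for 43.9% of such genes. Gained ends were 0 of 2, against 10.5%, since the 0 µM summit of ARG1 lay 1303 bp from its end. With H3K4me1, 7 of 10 genes had a marked end at 15 µM (52.9% of genes) and 5 of 10 at 0 µM (51.6%). By the same count per gene 0 were lost (8.92%) or gained (10.9%).

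**Figure D5:**
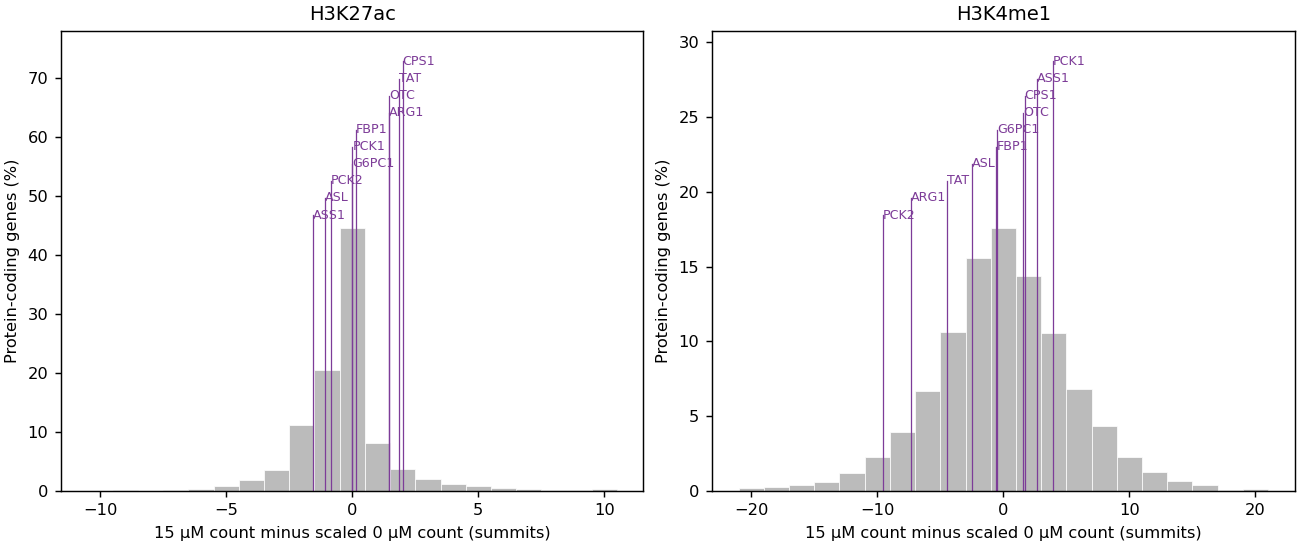
Histogram of the scaled difference in window summits (15 µM minus scaled 0 µM) over 19974 genes, with the 10 genes marked, for H3K27ac and H3K4me1. The outermost bars hold all genes beyond the axis. Of the 10 genes CPS1 is the highest for H3K27ac at 2, with 7.10% of all genes above it. PCK2 is the lowest for H3K4me1 at -9.56, with 4.12% of all genes below it. With only summits that score at least 10 for H3K27ac and 5 for H3K4me1, CPS1 is at 0 and PCK2 at -0.67.

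The share of positions that recurred between doses had an interval that included the whole list's share, for both marks. Of the H3K27ac summits near the 10 genes, 14 of 32 at 15 µM (43.8%, exact interval 26.4 to 62.3%) had a 0 µM summit within 500 bp, against 50.7% of the whole list, and 13 of 37 at 0 µM (35.1%, 20.2 to 52.5%) had a 15 µM one, against 38.7%. For H3K4me1 the shares were 101 of 221 (45.7%, 39.0 to 52.5%) against 43.5%, and 104 of 232 (44.8%, 38.3 to 51.5%) against 44.5%. An H3K4me1 summit lay within 1 kb of 20 of 32 H3K27ac summits at 15 µM (62.5%, 43.7 to 78.9%), against 58.5% of the list, and of 26 of 37 at 0 µM (70.3%, 53.0 to 84.1%), against 65.2%. Counted the other way, an H3K27ac summit lay within 1 kb of 21 of 221 H3K4me1 summits at 15 µM (9.50%, 5.98 to 14.2%), against 4.82% of the list, and of 30 of 232 at 0 µM (12.9%, 8.90 to 17.9%), against 7.67%. Without TAT these shares were 7.11% (3.94 to 11.6%) at 15 µM and 7.35% (4.17 to 11.8%) at 0 µM. Summits of 1 gene share their locus, so the intervals, which cover counting error only, are too narrow.

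The 11 other genes listed around the urea cycle had a median of 2 H3K27ac summits at 15 µM and 3 at 0 µM. The medians over all genes were 1 and 2. Of the 11, 1 had none at either dose, where 32.8% of all genes had none. Together the 11 had 21 summits at 15 µM and 43 at 0 µM, or 33.2 after scaling. Their median scaled difference was -1.09, against 0 over all genes. Of the 11, 0 were called higher, where 5.43% of all genes were, and 3 lower, where 11.6% were. The largest scaled differences were at CA5A, a mitochondrial carbonic anhydrase that makes bicarbonate, with 2 and 8, and SLC25A13, the aspartate and glutamate carrier citrin, with 3 and 7. SLC25A13 and SLC25A15, the ornithine carrier, with 3 and 6, were the 2 lost among 4 gene ends marked at 0 µM, where 43.9% of such ends were lost. Counts were small, at most 6 a gene at 15 µM and 8 at 0 µM.

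Other genes of gluconeogenesis had calls in both directions. The 14 listed totalled 104 H3K27ac summits with 15 µM choline and 110 with 0 µM, or 85.0 after scaling. Their median scaled difference was 1.18, against 0 over all genes. Of the 14, 3 were called higher, where 5.43% of all genes were, and 2 lower, where 11.6% were. MPC2, a subunit of the mitochondrial pyruvate carrier, had 24 and 19. G6PC3, a ubiquitous glucose-6-phosphatase, had 1 and 4, and SLC25A11, the oxoglutarate carrier, had 2 and 6. Lost gene ends were 3 of the 8 marked at 0 µM, where 43.9% of such ends were lost. They included those of G6PC3 and MDH2, the mitochondrial malate dehydrogenase. Of the 6 marked at 15 µM, 1 was gained (10.5% over all genes), at SLC2A2, the glucose transporter GLUT2. The window of FBP2, another gene of this list, overlaps that of FBP1.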

How the data were processed

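ChIP-seq summit lists of the 4 H3K27ac and H3K4me1 libraries were used. The other 8 samples of the series (4 inputs, 3 RNA-seq, 1 CUT&Tag) were not analysed here. The authors deposited 1 summit per line in MACS2 layout, with a −log10 score of a p- or q-value. Which of these, and the settings, are not given in the sources used here. Bowtie, Picard, deepTools, MACS2 and hg38 appear, without role, in the submitters' processing notes. Lowest scores were 5.01 for H3K27ac and 1.30 and 1.31 for H3K4me1, so list lengths were compared within a mark. Read depth is unknown, and list length moves with depth and enrichment.

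Positions on the 22 autosomes and X were used, 1-based, and set against RefSeq gene positions (GRCh38.p14). The gene table gives ends without exons, so exon, intron and UTR positions are not stated. A gene end is either annotated end. Lost and gained ends are counted per gene, with both ends pooled. Shares have exact Clopper-Pearson intervals. Intervals of differences are approximate and cover counting error only. Counting was tested on simulated data. Tools were Python 3.11.15, pandas 2.3.3, numpy 2.4.6, scipy 1.17.1 and matplotlib 3.10.9.

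The genes and lists were chosen with earlier results of these data known. Beyond the 10 genes, the text names list genes with a gained or lost H3K27ac end or, at most 2 per list and direction, the largest called differences, and neighbours with a summit at their own end in the window. Some list genes that this rule would name are not reported here. AARSD1, LYZ, PECAM1, VWF, ACTA2, ALB, HNF4A, CEBPA and FBP2 are named outside that rule.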

Additional observations from a re-analysis of the deposited data

How the results depend on the processing

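No paired analysis was possible because each mark and dose had 1 library and no replicate number. For the window differences of single genes, all but 5 of 140 alternative values lay within the counting interval of the reported one. Most of these intervals are wide, and they were applied to windows of other sizes too, so this is a weak check. Of the 140 values, 14 had the opposite sign. Among the called genes this was OTC H3K27ac, at -0.51 once summits within 1 kb were joined, which makes its 3 neighbouring summits 1. The others were of uncalled genes: H3K27ac at TAT (-2) and FBP1 (-1 and -0.77), and H3K4me1 at FBP1 (0.33 to 1.72), G6PC1 (4.48 to 11.2), CPS1 (-6.92 to -1.71) and ASL (1.41 to 3.48). The H3K27ac sum turned to -5 without scaling and to -0.37 with joined summits, and the H3K4me1 sum to 9.42 with joined summits. Gene ends with H3K27ac at 15 µM numbered 0 within 0.5 kb and 1 at RefSeq promoter starts, which also gave 1 at 0 µM. Those with H3K4me1 at 15 µM numbered 4 within 0.5 kb and 4 at a stricter score, and at 0 µM 2 within 0.5 kb and 8 within 2 kb. Sharing between doses followed the matching distance: 62.5% for H3K27ac at 15 µM within 1000 bp, and for H3K4me1 29.9% and 60.2% at 15 µM and 28.9% and 62.9% at 0 µM within 250 and 1000 bp. The window sums without TAT were chosen after seeing the data. With 1 library a group and depth unknown, counts of 2 to 5 summits cannot be ordered.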

Other observations

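Further gene groups around these pathways were counted in the same way. The 14 listed regulators of gluconeogenesis, among them the glucocorticoid receptor gene NR3C1, had 81 H3K27ac summits within 50 kb of a gene end at 15 µM and 103 at 0 µM, or 79.5 after scaling by list length. Much of this lay at HNF4A, with 26 and 30, and CEBPA, with 24 and 21, while the median regulator had 2.5 and 3.5. Of the 14 genes 0 were called higher, where 5.43% of all genes were, and 1 lower, where 11.6% were. The 1 was CRTC2, a CREB coactivator that glucagon signalling turns on, with 4 and 14. NR3C1 had a gene-end summit only at 15 µM, with 6 and 5 in its window. It was the 1 gained among 4 marked at 15 µM, where 10.5% of such ends were gained. PPARGC1A, a coactivator induced in fasting, had 0 at both doses and is named here after its values were seen.

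The 12 listed genes of amino acid breakdown totalled 47 H3K27ac summits with 15 µM choline and 46 with 0 µM, or 35.5 after scaling. Of the 12, 2 were called higher, where 5.43% of all genes were, and 1 lower, where 11.6% were. TDO2, which opens tryptophan breakdown, had 4 and 3, and KYNU, kynureninase, had 2 and 5. Gene ends were lost at TDO2 and at GSTZ1, a later enzyme of tyrosine breakdown, with 0 and 3 in its window. These were 2 of the 4 marked at 0 µM, where 43.9% of such ends were lost. H3K4me1 in this group was near even, at 301 and 297.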
